A study of Homo sapiens with 11 samples.

Results

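The genes described here are 7 receptor genes of myeloid cells, CSF1R, CSF2RB, CSF3R, KIT, CXCR4, IL6R and IFNGR1, in MV4-11, an established acute myeloid leukaemia cell line. They were taken by symbol, as the array's transcript clusters (groups of probes read as 1 transcript) annotated with that symbol alone. They are 7 of 22109 genes with such a cluster, and 7 of the 12147 genes that passed a filter on level. The study measured total RNA on 11 Affymetrix arrays, 1 array per condition. In the knockdown experiment, 7 arrays came from cells transduced with shRNAs against RUNX1, RUNX2 or RUNX3, alone (shRUNX1, shRUNX2, shRUNX3), in pairs (shRUNX1+shRUNX2, shRUNX1+shRUNX3, shRUNX2+shRUNX3) or all together (shRUNX1+shRUNX2+shRUNX3). The control of that experiment, shLuc, carried an shRNA against luciferase, a gene that human cells lack. All 8 of these cultures received 3 µM doxycycline for 24 hours. In the compound experiment, cells for which the labels name no transduction were exposed for 6 hours to 1 µM of Chb-M' or Chb-50, which the study design calls alkylating PIP conjugates, or to the solvent DMSO. MV4-11 is 1 cell line, so every condition shares its genotype. The labels do not say whether the arrays came from separate cultures. Each p-value below reflects the scatter of the 8 knockdown arrays alone around a fitted model, without replicates of a condition. That scatter may be technical, and it also holds any shRNA effect, such as that of a combination, that the model leaves out.

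Cytokine receptors let blood cells read growth and differentiation signals from the marrow. CSF1R and KIT are receptor tyrosine kinases for macrophage colony-stimulating factor and stem cell factor, whereas CSF2RB, CSF3R, IL6R and IFNGR1 belong to receptor complexes that signal through JAK kinases and STAT transcription factors, and CXCR4 is a G protein-coupled receptor that holds haematopoietic cells in the marrow. In myeloid differentiation KIT marks immature progenitors and mast cells, while CSF1R and CSF3R are carried by cells entering the monocyte and neutrophil lineages, and RUNX proteins bind DNA at the core letters TGTGGT or TGCGGT near many myeloid genes.

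The levels below are log2 signals, so that a difference of 1 is a doubling, and a probe's level is not set against another probe's. The median level over the genes tested lay between 5.86 and 5.91 on all 11 arrays, and arrays give no read depth, so their number limits the precision. The RUNX2 cluster stood at 5.72, 5.70, 5.56 and 5.82 with the RUNX2 shRNA, below every knockdown array without it (6.00 to 6.30). Among the same 8 arrays RUNX3 stood at 7.65 to 7.87 with its shRNA, against 7.70 to 8.37 without it, where the lowest value was that of the array labelled shRUNX1. RUNX1 was read only by a cluster shared with LOC100506403, at 3.96 to 4.26 with the RUNX1 shRNA against 4.20 to 4.45 without it, and the highest of the 4 values with the shRNA was that of the array labelled shRUNX1+shRUNX2. Results on the RUNX1 shRNA are therefore also given without each of these arrays. Of 10 markers of a myeloid leukaemia line 8 were measured and all 8 passed the filter, SPI1, LYZ and FLT3 among them, whereas the measured markers of erythroid, epithelial, fibroblast and mast cells did not, and 1 each of the T cell (CD8A) and B cell (CD79A) lists and 2 of the megakaryocyte list (PF4 and ITGA2B) did. In bulk RNA such as this, fewer cells of a type and less RNA per cell cannot be told apart.

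Promoters were compared because CSF3R, IL6R and IFNGR1 stood highest on the same arrays. RefSeq promoter windows (GRCh38.p14, 250 bases before to 50 bases after the gene's start, in the gene's own direction) were found for 6 of the 7 genes, all but CSF2RB. Both strands were searched for TGTGGT and TGCGGT, motifs that do not overlap with each other here, and a match is shown in capitals. The first window is that of CSF3R on the minus strand at chr1:36483265-36483564, with TGTGGT 14 to 19 bases after the start. The second is that of IL6R on the plus strand at chr1:154405093-154405392, with ACCGCA, which is TGCGGT on the opposite strand, -45 to -40 bases from the start. The third is that of IFNGR1 on the minus strand at chr6:137219147-137219446, with no match.
CSF3R: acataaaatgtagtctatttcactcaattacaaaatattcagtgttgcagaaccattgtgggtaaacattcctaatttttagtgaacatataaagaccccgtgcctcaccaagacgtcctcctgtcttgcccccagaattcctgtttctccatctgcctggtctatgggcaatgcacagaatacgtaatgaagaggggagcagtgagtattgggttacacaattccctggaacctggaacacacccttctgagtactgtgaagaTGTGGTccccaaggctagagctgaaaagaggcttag
IL6R: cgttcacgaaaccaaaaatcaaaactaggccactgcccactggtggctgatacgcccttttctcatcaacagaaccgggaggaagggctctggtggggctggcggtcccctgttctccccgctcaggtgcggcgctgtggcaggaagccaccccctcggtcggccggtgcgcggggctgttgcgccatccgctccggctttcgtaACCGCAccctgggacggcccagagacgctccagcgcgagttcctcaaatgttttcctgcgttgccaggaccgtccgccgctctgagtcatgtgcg
IFNGR1: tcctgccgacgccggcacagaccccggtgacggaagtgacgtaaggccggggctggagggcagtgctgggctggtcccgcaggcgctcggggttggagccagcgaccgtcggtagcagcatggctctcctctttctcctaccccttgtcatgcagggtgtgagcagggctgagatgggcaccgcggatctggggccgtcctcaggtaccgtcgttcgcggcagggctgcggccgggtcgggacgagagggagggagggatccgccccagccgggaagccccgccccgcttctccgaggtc

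The windows of CSF1R, KIT and CXCR4 held neither motif either. Only 1 window per gene was searched. Sites farther away, or at another start of the same gene, were not looked for, so a window without a match does not show that a gene lacks them. Among the windows of 9215 genes tested, 9.68% held TGTGGT, 10.2% held TGCGGT and 19.0% held at least 1 of them, and among all 27305 windows 13.1%, 7.11% and 19.4% did. The 2 of 6 receptor windows with a match are thus too few to set against those shares, and a match is a description of letters, not of binding.

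With the RUNX1 shRNA, CSF3R and IFNGR1 showed the largest positive differences of the 7 genes and KIT the largest negative one, but no receptor gene passed the test. The comparison asked what the RUNX1 shRNA did to each level, whatever other RUNX shRNAs were present, with 4 arrays on each side. Values with the RUNX1 shRNA are given in the order shRUNX1, shRUNX1+shRUNX2, shRUNX1+shRUNX3 and shRUNX1+shRUNX2+shRUNX3, and values without it in the matching order shLuc, shRUNX2, shRUNX3 and shRUNX2+shRUNX3. The test was limma with additive terms for the 3 shRNAs, and p-values were adjusted by the Benjamini-Hochberg method over all 12147 genes. It called 0 of the 7 genes and 0% of all genes tested at an adjusted p of 0.05.

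CSF3R, the receptor for granulocyte colony-stimulating factor, stood at 6.18, 6.42, 6.75 and 6.70 with the RUNX1 shRNA, against 5.96, 6.30, 6.23 and 6.23 without it. The shLuc array was the lowest and the 2 arrays carrying both the RUNX1 and the RUNX3 shRNA were the highest, and the groups overlapped through the array labelled shRUNX1. The means were 6.52 ± 0.265 with and 6.18 ± 0.151 without the shRNA (SD, n = 4 each). The level was higher with the RUNX1 shRNA in 4 of 4 matched pairs, by 0.12 to 0.53. The limma difference was 0.34 (SE 0.0995) with an adjusted p of 0.131. It was 0.41 without the array labelled shRUNX1 and 0.35 without that labelled shRUNX1+shRUNX2. With each of the 8 arrays left out in turn it ran from 0.25 to 0.43, with a limma adjusted p up to 0.35.

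CSF1R, the receptor for macrophage colony-stimulating factor and interleukin 34, stood at 7.56, 8.07, 7.78 and 7.64 with the RUNX1 shRNA, against 7.41, 7.67, 7.41 and 7.63 without it. The array labelled shRUNX1+shRUNX2 stood above all others, at 8.07, and the groups overlapped. All 4 matched pairs had the higher level with the RUNX1 shRNA, though the pair shRUNX1+shRUNX2+shRUNX3 against shRUNX2+shRUNX3 differed by only 0.01. The limma difference of 0.23 (SE 0.101) had an adjusted p of 0.242, and without the array labelled shRUNX1+shRUNX2 it was 0.15, against 0.30 without the array labelled shRUNX1.

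CSF2RB, the beta chain shared by the receptors for GM-CSF, interleukin 3 and interleukin 5, stood at 6.64, 6.69, 6.67 and 6.68 with the RUNX1 shRNA, against 6.84, 6.84, 6.69 and 6.84 without it. The groups did not overlap, but the highest value with the shRNA and the lowest without it were both 6.69. Of the arrays without the shRNA, shLuc, shRUNX2 and shRUNX2+shRUNX3 carried an identical value, and 11.2% of all genes tested had 3 or more knockdown arrays at an identical value. CSF2RB was lower with the RUNX1 shRNA in 4 of 4 matched pairs, by a limma difference of -0.13 (SE 0.0563) with an adjusted p of 0.236. That difference was -0.12 without the array labelled shRUNX1 and -0.12 without that labelled shRUNX1+shRUNX2. Its SD over the 8 knockdown arrays, 0.0862, was the smallest of the 7 genes and below the median of all genes tested, 0.133.

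KIT, the receptor for stem cell factor, stood at 4.21, 4.62, 4.59 and 4.36 with the RUNX1 shRNA, against 5.00, 4.90, 4.95 and 4.26 without it. The shRUNX2+shRUNX3 array, which carried no RUNX1 shRNA, was nearly as low as the array labelled shRUNX1, so the groups overlapped. KIT had the widest SD of the 7 genes over the knockdown arrays, 0.315. The limma difference was -0.33 (SE 0.172, adjusted p = 0.315). Leaving out the array labelled shRUNX1 brought the difference to -0.14, whereas without that labelled shRUNX1+shRUNX2 it was -0.42 and without shRUNX2+shRUNX3 -0.52.

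CXCR4, the receptor for the chemokine CXCL12, stood at 8.96, 9.18, 9.20 and 9.09 with the RUNX1 shRNA, against 8.75, 9.05, 8.95 and 8.88 without it. Every one of its 4 matched pairs was higher with the shRNA, by 0.13 to 0.25, and the groups overlapped because the shRUNX2 array stood above that labelled shRUNX1. The limma difference was 0.20 (SE 0.0847, adjusted p = 0.233), and it was 0.24 and 0.18 without the arrays labelled shRUNX1 and shRUNX1+shRUNX2. With each of the 8 arrays left out in turn it ran from 0.14 to 0.26.

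IL6R, which binds interleukin 6 and signals through the shared subunit IL6ST, stood at 8.13, 8.20, 8.45 and 8.54 with the RUNX1 shRNA, against 8.14, 8.07, 8.23 and 8.17 without it. Its high values were those of the 2 arrays that carried both the RUNX1 and the RUNX3 shRNA, and the other 6 arrays lay between 8.07 and 8.23. The difference was 0.18 (SE 0.0717, limma adjusted p = 0.217), with 3 of 4 matched pairs higher. It was 0.22 without the array labelled shRUNX1 and 0.19 without that labelled shRUNX1+shRUNX2. With each of the 8 arrays left out in turn it ran from 0.13 to 0.23.

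IFNGR1, the ligand-binding chain of the interferon gamma receptor, stood at 6.82, 6.87, 7.01 and 7.19 with the RUNX1 shRNA, against 6.63, 6.74, 6.52 and 6.66 without it. The groups did not overlap, and the means were 6.97 ± 0.166 with and 6.64 ± 0.0893 without the shRNA (SD, n = 4 each). The level was higher in 4 of 4 matched pairs, by 0.13 to 0.53. The limma difference of 0.33 (SE 0.0836) had the smallest adjusted p of the 7 genes, 0.110. It was 0.36 and 0.39 without the arrays labelled shRUNX1 and shRUNX1+shRUNX2. With each of the 8 arrays left out in turn it ran from 0.27 to 0.39, with a limma adjusted p up to 0.32.

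**Figure D1:**
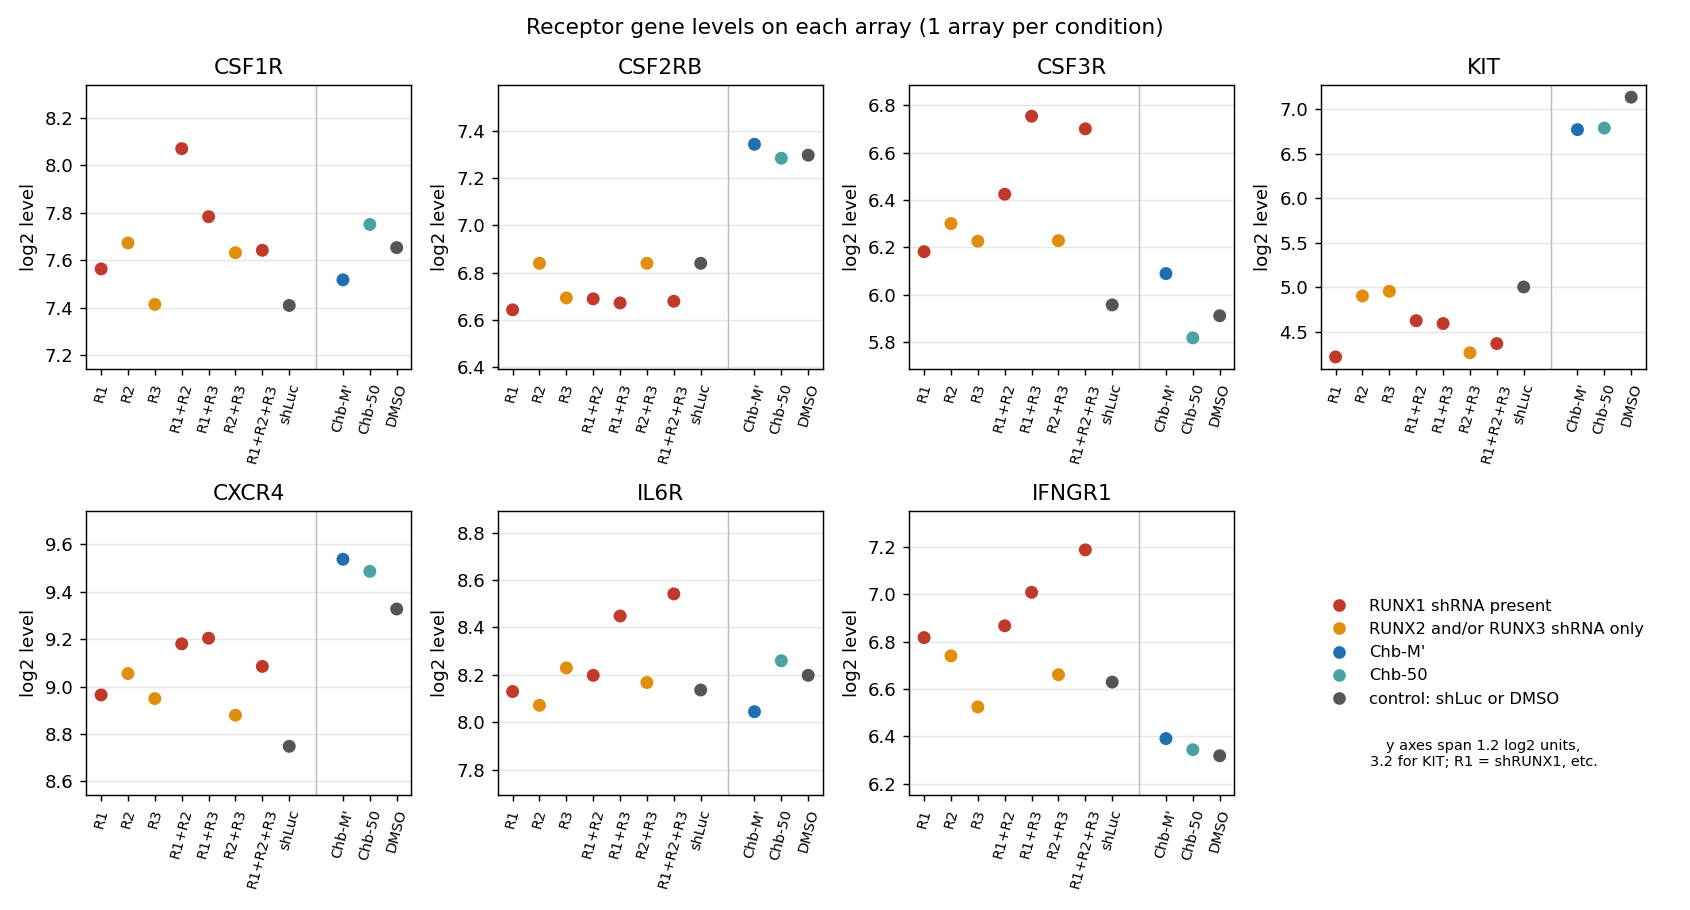
Log2 level of each of the 7 receptor genes on the 11 arrays, 1 point per array, with the RUNX shRNA arrays left of shLuc and the Chb-M' and Chb-50 arrays left of DMSO. CSF3R, IL6R and IFNGR1 were highest where the RUNX1 and RUNX3 shRNAs were combined, and KIT stood between 4.21 and 5.00 on the knockdown arrays, against 6.77 to 7.14 on the arrays of the compound experiment.

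Read against all genes, 2 of the 7 receptor genes had groups that did not overlap, IFNGR1 with the higher values and CSF2RB with the lower. Of all genes tested 5.15% stood higher and 4.73% lower without overlap. At an unadjusted p of 0.05 the limma test took CSF3R, CXCR4, IL6R and IFNGR1 as higher and none of the 7 as lower, where 21.2% of all genes passed, 11.2% higher and 10% lower. The median difference was 0.20 over the 7 genes and 0.01 over all genes tested. Of the markers of granulocyte precursors all 6 were measured, and the mean level of the list was 6.66 to 6.87 with the RUNX1 shRNA, against 6.58 to 6.65 without it. Over the 4 that passed the filter (ELANE, MPO, PRTN3 and AZU1) the mean was 9.03 to 9.29 with and 8.92 to 9.07 without the shRNA, so that the groups overlapped. The monocyte list, with 5 of 6 markers measured and CD14 among those below the filter, averaged 5.56 to 5.79 with and 5.20 to 5.62 without the shRNA. The part of these markers in the receptor differences was not tested.

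For the RUNX2 shRNA the 7 genes differed little. The limma fit called 0 of them and 0% of all genes, and their adjusted p-values were 0.965 or higher. At an unadjusted p of 0.05 it took 0 of the 7 and 4.88% of all genes. CSF1R had the largest positive difference, 0.21 (SE 0.101), and KIT the negative one, -0.15 (SE 0.172). The CSF1R value was 0.13 without the array labelled shRUNX1+shRUNX2, and the KIT value ran from -0.34 without the array labelled shRUNX1 to 0.03 without shRUNX2+shRUNX3. IFNGR1 was higher in 4 of 4 matched pairs, by 0.05 to 0.18, but with 7.19 as its highest and 6.66 as its lowest value it overlapped the arrays without the shRNA, at 6.52 to 7.01. No receptor gene had groups free of overlap, where 0.807% of all genes stood higher and 0.733% lower.

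For the RUNX3 shRNA the larger differences were those of CSF3R and IL6R. The array labelled shRUNX1 counted as without this shRNA, though its RUNX3 level lay within the range of the arrays with it. CSF3R averaged 6.48 ± 0.289 with and 6.22 ± 0.199 without the shRNA (SD, n = 4 each), and the shRUNX3 and shRUNX2+shRUNX3 arrays lay within the range of the arrays without it. Its limma difference was 0.26 (SE 0.0995, adjusted p = 0.505), and 0.17 without shRUNX1+shRUNX3. With each of the 8 arrays left out in turn, that labelled shRUNX1 included, the difference ran from 0.17 to 0.35 for CSF3R and from 0.16 to 0.26 for IL6R. IL6R averaged 8.35 ± 0.177 with and 8.13 ± 0.0517 without the shRNA (SD, n = 4 each), and was higher in 4 of 4 matched pairs by 0.09 to 0.34, a limma difference of 0.21 (SE 0.0717, adjusted p = 0.475). The shRUNX2+shRUNX3 array, at 8.17, lay below the shRUNX1+shRUNX2 array, at 8.20, so these groups overlapped. The remaining 5 genes had adjusted p-values of 0.777 or higher. The test called 0 of the 7 genes and 0% of all genes, and at an unadjusted p of 0.05 it took CSF3R and IL6R, along with 9.39% of all genes. None of the 7 was free of overlap, against 1.61% of all genes higher and 1.58% lower.

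**Figure D2:**
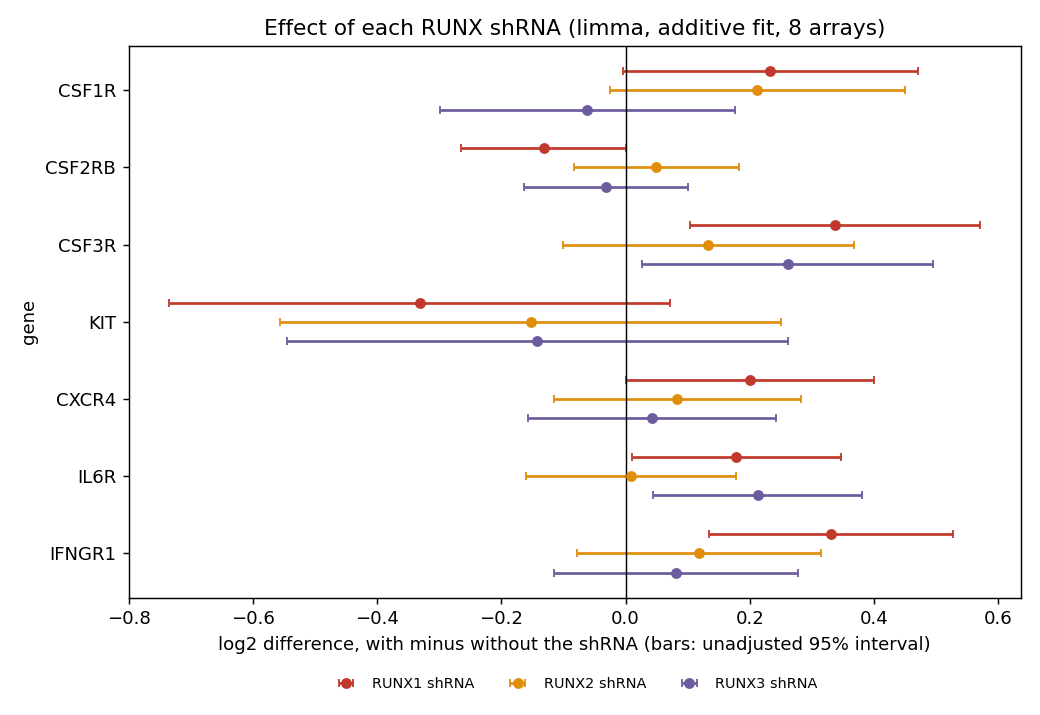
Difference in log2 level, with minus without each RUNX shRNA, for the 7 receptor genes in the additive limma fit on 8 arrays, with bars for the unadjusted 95% interval. The RUNX1 points of CSF3R (0.34) and IFNGR1 (0.33) lie farthest right and that of KIT (-0.33) farthest left, and no difference passed the adjusted test.

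Whether the RUNX1 and RUNX3 shRNAs together gave more than the sum of both was tested with a product term in limma, which called 0 of the 7 genes and 0% of all genes. At an unadjusted p of 0.05 it took IFNGR1 alone of the 7, and 12.7% of all genes. IFNGR1 had the smallest p of the 7: the term was 0.35 (SE 0.103, adjusted p = 0.302). The RUNX1 difference of IFNGR1 was 0.48 and 0.53 in the 2 pairs that also carried the RUNX3 shRNA, against 0.19 and 0.13 in the 2 pairs that did not. CSF3R showed the same layout, with 0.53 and 0.47 in the pairs carrying the RUNX3 shRNA, against 0.22 and 0.12 in those that did not, and a term of 0.33 (SE 0.164, adjusted p = 0.474). In IL6R the pairs carrying the RUNX3 shRNA differed by 0.22 and 0.37, against -0.01 and 0.13, with a term of 0.24 (SE 0.113, adjusted p = 0.452). With each of the 8 arrays left out in turn, the term ran from 0.18 to 0.29 in IL6R and from 0.30 to 0.39 in IFNGR1. KIT had a term of 0.40 (SE 0.331, adjusted p = 0.648), and its RUNX1 differences were -0.36 and 0.10 in the pairs carrying the RUNX3 shRNA, against -0.79 and -0.28 in those that did not. The KIT term was 0.03 without the array labelled shRUNX1, 0.04 without shRUNX2+shRUNX3, 0.78 without the array labelled shRUNX1+shRUNX2 and 0.76 without shRUNX3, and that of CSF3R was 0.19 without shRUNX2 and 0.20 without shRUNX1+shRUNX3.

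Over the number of RUNX shRNAs, CSF3R had the steepest slope of the 7 genes. It stood at 5.96 on shLuc, at a mean of 6.24 over the 3 arrays with 1 RUNX shRNA, at 6.47 over the 3 with 2 and at 6.70 with all 3. The 3 arrays with 1 shRNA ranged from 6.18 to 6.30, all above shLuc, and those with 2 ranged more widely, from 6.23 to 6.75, overlapping the arrays with 1. The limma slope was 0.24 per shRNA (SE 0.0584, adjusted p = 0.124). Without the shRUNX2+shRUNX3 array it was 0.27 with an adjusted p of 0.0466, which passes the threshold, in a fit that called 234 of 12147 genes. IFNGR1 followed with 0.18 (SE 0.0566, adjusted p = 0.160) and IL6R with 0.13 (SE 0.0475, adjusted p = 0.185), which was 0.0827 (adjusted p = 0.673) without shRUNX1+shRUNX2+shRUNX3. KIT had a slope of -0.21 (SE 0.0930, adjusted p = 0.263), from means of 5.00, 4.69, 4.49 and 4.36 over 0, 1, 2 and 3 shRNAs. The fit on all 8 arrays called 0 of the 7 genes, and 0.00823% of all genes, which is 1 gene, and at an unadjusted p of 0.05 it took CSF3R, IL6R and IFNGR1 along with 19.1% of all genes.

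Set singly against shLuc, where no replicate check exists, none of the 7 genes reached a 2-fold difference on any of the 7 RUNX shRNA arrays. The share of all genes that did so was 0.198%, 0.181% and 0.222% on shRUNX1, shRUNX2 and shRUNX3, 0.362%, 1.98% and 0.115% on shRUNX1+shRUNX2, shRUNX1+shRUNX3 and shRUNX2+shRUNX3, and 1.43% on shRUNX1+shRUNX2+shRUNX3. At 1.5-fold there were 6 cases. CSF3R was higher than shLuc by 0.80 on shRUNX1+shRUNX3 and by 0.74 on shRUNX1+shRUNX2+shRUNX3, where 3.34% and 3.61% of all genes were higher to that degree. CSF1R was higher by 0.66 on the array labelled shRUNX1+shRUNX2, along with 2.31% of all genes. KIT differed by -0.79 on the array labelled shRUNX1, by -0.74 on shRUNX2+shRUNX3 and by -0.64 on shRUNX1+shRUNX2+shRUNX3, where 1.23%, 0.766% and 4.27% of all genes were lower by 1.5-fold or more.

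Neither compound moved a receptor gene past the test at 6 hours. With 1 array per compound, limma took the spread from the knockdown arrays and assumed that the compound arrays vary alike. For Chb-M' against DMSO it called 0 of the 7 genes and 0.609% of all genes, and for Chb-50 against DMSO 0 of the 7 and 0%. At an unadjusted p of 0.05 it took none of the 7 with either compound, against 13.9% of all genes with Chb-M' and 9.17% with Chb-50. A 2-fold difference from DMSO was seen in 0.873% and 0.296% of all genes with the same compounds, and in none of the 7.

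KIT stood at 6.77 with Chb-M' and 6.79 with Chb-50, against 7.14 with DMSO, the largest difference from DMSO among the 7 genes with either compound. It came to -0.37 for Chb-M' (95% interval -1.17 to 0.44, limma adjusted p = 0.706) and to -0.35 for Chb-50 (95% interval -1.16 to 0.46, adjusted p = 0.865). CXCR4 stood at 9.54 with Chb-M' and 9.49 with Chb-50, against 9.33 with DMSO, so both compound arrays lay above DMSO, by 0.21 and 0.16. CSF3R stood at 6.09 with Chb-M' and 5.82 with Chb-50, against 5.91 with DMSO, and thus lay on either side of the solvent.
CSF1R stood at 7.52 with Chb-M' and 7.75 with Chb-50, against 7.65 with DMSO. IL6R stood at 8.04 with Chb-M' and 8.26 with Chb-50, against 8.20 with DMSO. In both genes Chb-M' gave the lowest and Chb-50 the highest of the 3 values. CSF2RB, at 7.34, 7.28 and 7.30, and IFNGR1, at 6.39, 6.34 and 6.32, lay close together across Chb-M', Chb-50 and DMSO.

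The pair of compounds could be compared directly, at the same dose and time, and this was the only pair. Chb-M' minus Chb-50 was 0.27 for CSF3R (95% interval -0.20 to 0.74), -0.23 for CSF1R (-0.71 to 0.24) and -0.21 for IL6R (-0.55 to 0.12), and between -0.02 and 0.06 for the other 4 genes. For KIT, where both compound arrays lay about equally far below DMSO, the interval of the difference ran from -0.82 to 0.79. Limma adjusted p-values were 0.861 or higher over the 7 genes, which does not show that the compounds act alike. It called 0 of the 7 and 0% of all genes, and at an unadjusted p of 0.05 it took 0 of the 7 and 7.15% of all genes. A 2-fold difference between the compounds was seen in 0.198% of all genes and in none of the 7.

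**Figure D3:**
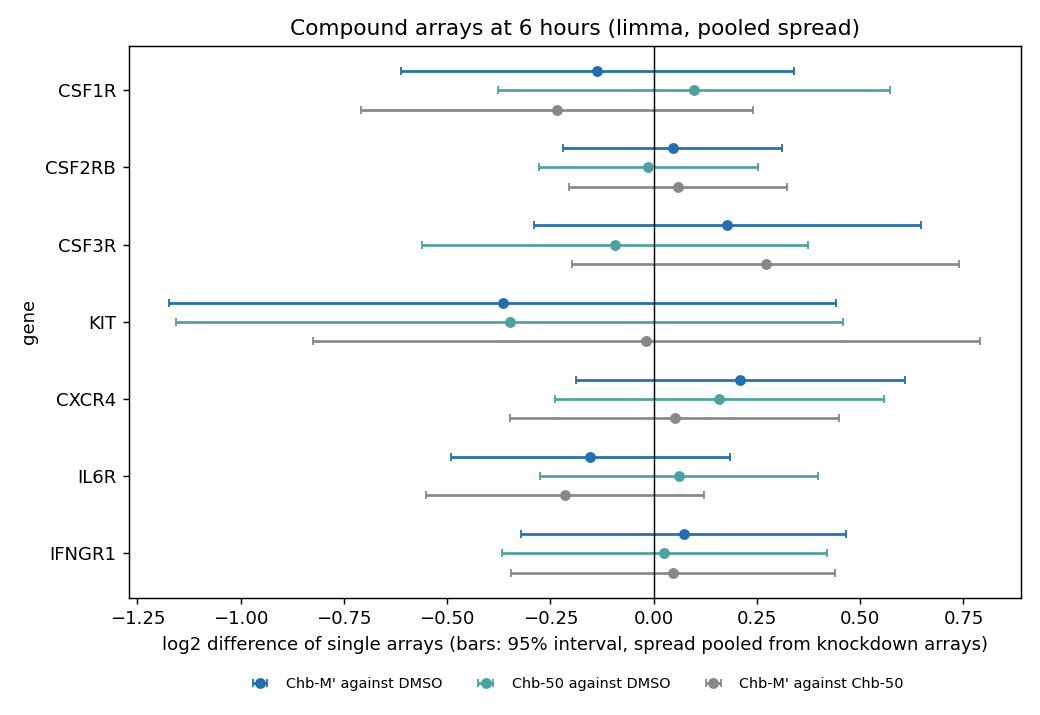
Difference in log2 level of the 7 receptor genes for Chb-M' minus DMSO, Chb-50 minus DMSO and Chb-M' minus Chb-50, 1 array each, with bars for the unadjusted 95% interval taken from the spread of the knockdown arrays. Every bar crosses 0, and the KIT bars, at -0.37 and -0.35 against DMSO, are the widest.

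KIT and CSF2RB differed more between the experiments than within them. For CXCR4 the means of the experiments differed by 0.44, against a range of 0.46 over the knockdown arrays. The contrast sets shLuc against DMSO, which differ in hours of exposure and, as far as the labels say, in transduction, doxycycline and solvent. These factors cannot be told apart. The labels do not say whether the arrays of both experiments were run together, so an effect of the run cannot be told apart from them either. The comparison was added after the levels had been seen. KIT stood at 5.00 on shLuc against 7.14 on DMSO, a difference of -2.14 or 4.40-fold lower, the third lowest of the 12147 genes tested. Of all genes tested 0.609% were lower 2-fold or more in this contrast, and KIT was the only 1 of the 7 receptor genes to reach that size. All 8 knockdown arrays, at 4.21 to 5.00, lay below the 3 arrays of the compound experiment, at 6.77 to 7.14. KIT's range over the 11 arrays, 2.92, was the fourth widest of all genes tested.

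CXCR4 stood at 8.75 on shLuc against 9.33 on DMSO, a difference of -0.58, and CSF2RB at 6.84 against 7.30, a difference of -0.46. CSF1R differed by -0.24, IL6R by -0.06 and CSF3R by 0.05. IFNGR1 stood at 6.63 on shLuc against 6.32 on DMSO, a difference of 0.31. Over all arrays, KIT, CSF2RB and CXCR4 lay lower on the 8 knockdown arrays than on the 3 arrays of the compound experiment without overlap, as did 7.83% of all genes, and IFNGR1 lay higher without overlap, as did 8.31%.

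In the limma fit on all 11 arrays, KIT fell in shLuc relative to DMSO, with a fitted difference of -2.21 (SE 0.297, adjusted p = 0.0357), 1 of 7 receptor genes called in a test that called 0.477% of all genes. At an unadjusted p of 0.05 the test took KIT, CSF2RB and CXCR4, and 19.2% of all genes. The fitted difference of CSF2RB was -0.50 (SE 0.0975, adjusted p = 0.0644) and that of CXCR4 was -0.48 (SE 0.147, adjusted p = 0.150). The call on KIT ended when any of 6 arrays was left out (shLuc, shRUNX2, shRUNX3, shRUNX1+shRUNX2, shRUNX1+shRUNX3 or shRUNX1+shRUNX2+shRUNX3), with an adjusted p up to 0.116, while the difference stayed between -2.30 and -2.02. CSF2RB passed with a stricter level filter (adjusted p = 0.0394) and with a prior that follows the level (adjusted p = 0.0446), settings that called 140 and 216 genes in all, against 58. The 2 measured mast cell markers were below the filter on average, at a list mean of 2.08 to 2.28 on the knockdown arrays and 1.97 to 2.15 on those of the compound experiment. The granulocyte list averaged 6.58 to 6.87 on the knockdown arrays, against 6.31 to 6.36. Of its genes past the filter ELANE, MPO and PRTN3 lay higher on the knockdown arrays without overlap, whereas AZU1 overlapped. Of those below the filter CEACAM8 lay higher without overlap, at 1.58 to 2.11 against 1.44 to 1.52, and LTF overlapped. The monocyte list overlapped, at 5.20 to 5.79 on the knockdown arrays against 5.58 to 5.66. Only its ITGAX was free of overlap and lay lower on the knockdown arrays, at 3.23 to 4.74 against 5.28 to 5.44. The part of these markers in the receptor differences between the experiments was not tested.

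**Figure D4:**
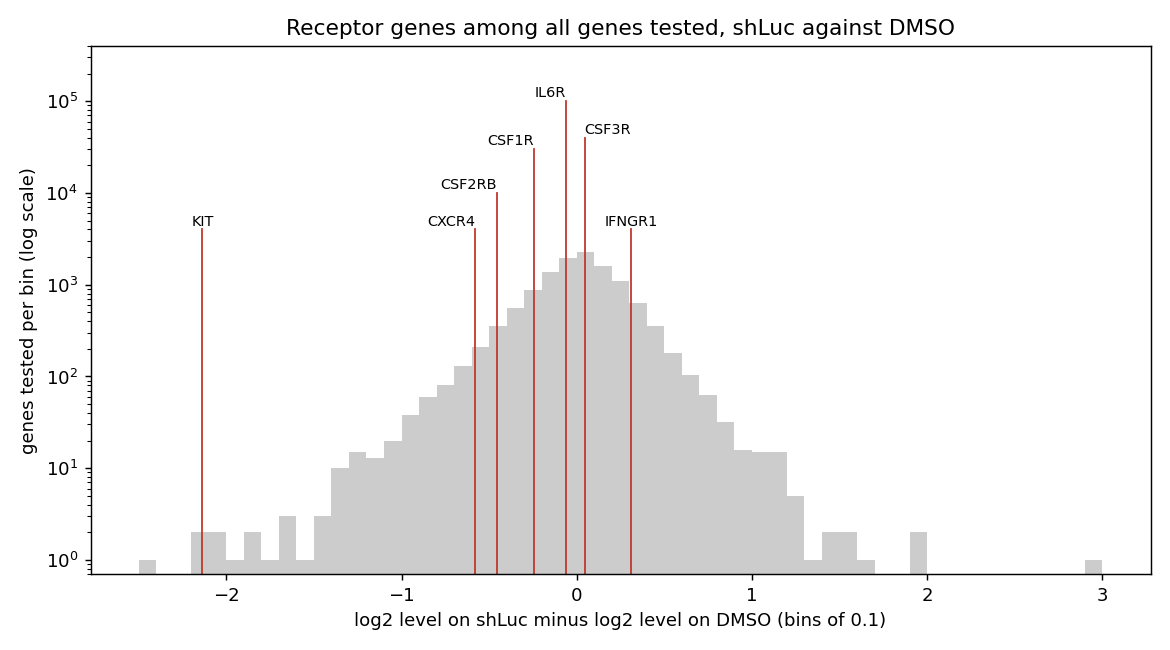
Number of genes tested, on a log scale, by difference in log2 level between shLuc and DMSO in bins of 0.1, with a line at each of the 7 receptor genes (line heights differ only to part the labels). KIT, at -2.14, lies at the far left of the distribution, while the other 6 lie between -0.58 and 0.31.

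Genes that work with these receptors were followed as lists, none of whose members passed the test in any comparison within the knockdown or the compound experiment. Of 27 other cytokine receptors 22 were tested, and with the RUNX1 shRNA 15 had a positive and 7 a negative difference, with a median of 0.16. Of all genes tested 52.8% were positive, with a median of 0.01. At an unadjusted limma p of 0.05 the list had 7 genes higher and 2 lower, against 11.2% and 10% of all genes. The highest of the list was IL10RA, the interleukin 10 receptor, at 0.40 (SE 0.102, limma adjusted p = 0.110). The lowest was IL7R, the interleukin 7 receptor, at -0.63 (SE 0.238, adjusted p = 0.193). IL7R stood at 5.27 on shRUNX1+shRUNX3 and 5.68 on shRUNX1+shRUNX2+shRUNX3, against 6.91 on shLuc, and was also the lowest of its list with the RUNX3 shRNA, at -0.80, and for the product term, at -1.04. Those 2 arrays are the same on which CSF3R, IL6R and IFNGR1 were highest.
CSF2RA, the GM-CSF receptor chain that pairs with CSF2RB, had the highest product term of the list, 0.58 (SE 0.153, adjusted p = 0.292), and the highest slope, 0.23. It stood at 7.84 on shRUNX1+shRUNX3 and 7.89 on shRUNX1+shRUNX2+shRUNX3, against 7.28 on shLuc. CSF2RB stood lower on the same arrays, at 6.67 and 6.68, against 6.84 on shLuc.

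Of 26 genes for JAK kinases, STAT factors and their regulators 22 were tested, with a median RUNX1 difference of 0.04. JAK2, a kinase used by CSF2RB, CSF3R and the interferon gamma receptor, was the highest at 0.35 (SE 0.106, limma adjusted p = 0.137), and PIM1, a kinase gene induced by STAT5, the lowest at -0.65 (SE 0.182, adjusted p = 0.121). STAT5A was the lowest of this list with both compounds, at -0.56 with Chb-M' (SE 0.147, adjusted p = 0.156) and at -0.37 with Chb-50. Of 10 chemokine receptors 6 were tested, and with the RUNX1 shRNA they ran from 0.21 for CXCR2, a neutrophil receptor, to -0.21 for CCR7, a lymphocyte homing receptor. FLT3, the only class III receptor tyrosine kinase of 3 listed to pass the filter, differed by -0.05 (SE 0.0657). Of the 10 ligand genes of the 7 receptors only CSF3 was tested, with a RUNX1 difference of 0.02.
Between shLuc and DMSO 1 gene of these lists passed the test, IL2RG, the common gamma chain of several interleukin receptors. It fell in shLuc, at 4.47 against 6.01 on DMSO, and had 4.35 to 4.82 over the 8 knockdown arrays, against 5.60 to 6.01 on those of the compound experiment. Its fitted difference was -1.42 (SE 0.183, adjusted p = 0.0335). FLT3 differed by -0.40 (SE 0.114, adjusted p = 0.130) and STAT5A by -0.62 (SE 0.127, adjusted p = 0.0759).

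The profiles most like each receptor's were found by Pearson correlation over the 8 knockdown arrays among 10464 protein-coding genes, as a description of arrays that share 1 cell line and 1 deposited table. IFNGR1 lay closest to PARVG, a cytoskeletal adaptor of blood cells (r = 0.994), and to STX8, a syntaxin of endosomes (r = 0.987). CSF3R lay closest to QTRT2 and PLD4 (r = 0.989 each) and IL6R to the organic cation transporter gene SLC22A4 (r = 0.986) and ATP5PB (r = 0.983). CXCR4 lay closest to GRN, which encodes progranulin (r = 0.986), and UIMC1 (r = 0.963), and CSF1R to MYOF (r = 0.978) and SFT2D2 (r = 0.975).
CSF2RB lay closest to HMGN1, a nucleosome-binding protein gene (r = 0.965), and PNN (r = 0.936), and KIT to PIAS3 (r = 0.922) and INTS4 (r = 0.919). The number of genes with a similar profile differed between the receptors, and it was not set against that of other genes. CSF3R had 293 genes with an r of at least 0.9, IFNGR1 257, IL6R 197, CXCR4 87 and CSF1R 41, against 7 for CSF2RB and 3 for KIT.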

How the data were processed

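Total RNA of MV4-11 cells was hybridised to 11 Affymetrix arrays, and the table the authors deposited holds a log2 level for each transcript cluster and array, between 0.48 and 12.74. Per the submitters' processing notes the tools were Affymetrix Expression Console 1.3.1, RMA and Transcriptome Analysis Console 1.0, and further settings are not given in the sources used here. Of 53617 clusters 23558 listed 1 gene symbol, 2155 several and 27904 none. For each gene the cluster with the highest mean was kept. A gene was tested if its highest level over the 11 arrays was at least the median level of 3.80 (12147 of 22109). Limma 3.58.1 in R 4.3.3 was fitted as the additive model on 8 knockdown arrays (4 residual degrees of freedom), with a product term, with a slope, and on all 11 arrays for the compounds. Benjamini-Hochberg adjustment ran over all genes tested, at a threshold of 0.05. Of the fits only the additive one, for the RUNX1 shRNA, was tried on simulated data. Alternatives changed the level filter, cluster rule, centring, prior, model terms and arrays included.

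The 7 genes, the lists and the tests were chosen with earlier results of these data known. Besides the 7 genes and the RUNX genes, the text names genes of each list past the test, or else a list's highest and lowest, and the 2 protein-coding genes with the highest correlation. The levels of IL7R and CSF2RA by array were added after their values were seen.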

Additional observations from a re-analysis of the deposited data

Results flagged for a closer look

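Among 42 groups of 4 arrays examined over the 7 receptor genes, 4 held an array that stood far from the other 3. Chance gives about 1 in 20 such cases where the 4 arrays of a group are replicates. Here each array of a group was a different condition, and the groups share arrays, so that rate need not apply. CSF1R on the array labelled shRUNX1+shRUNX2 was 8.07, against 7.63 to 7.67 on the other 3 arrays with the RUNX2 shRNA. KIT on shRUNX2+shRUNX3 was 4.26, against 4.90 to 5.00 on the other 3 arrays without the RUNX1 shRNA. CSF2RB appeared in both remaining cases: it was 6.69 on shRUNX3, against 6.84 on each of the other 3 arrays without the RUNX1 shRNA, and 6.84 on shRUNX2+shRUNX3, against 6.67 to 6.69 on the other 3 arrays with the RUNX3 shRNA. In CSF2RB the identical values on 3 arrays narrow the range against which an array is judged.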

How the results depend on the processing

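No receptor gene passed or lost the test for a single RUNX shRNA, the product term or the compounds under any alternative run. The RUNX2 difference of IL6R, 0.01, was -0.0109 with arrays centred on the median. Leaving out 1 array at a time turned the sign of small differences, which then ranged from -0.0419 to 0.0567 for IL6R and -0.34 to 0.0325 for KIT (RUNX2), from -0.14 to 0.0378 for CSF1R, -0.0528 to 0.0026 for CSF2RB, -0.33 to 0.0426 for KIT and -0.0156 to 0.11 for CXCR4 (RUNX3), from -0.32 to 0.15 for CSF1R and -0.0899 to 0.21 for CXCR4 (product term), and from -0.0239 to 0.14 for CSF3R in shLuc against DMSO. Leaving out arrays gave 0 to 1 receptor genes with a slope over the number of RUNX shRNAs, and 0 to 1 in shLuc against DMSO, where the stricter filter and the level-following prior gave 2. At 1.5-fold there were 6 cases against shLuc, where 2-fold gave 0. Counts over all genes moved more. For the RUNX1 shRNA 0 genes were called, but 110 with the stricter filter, 65 with the level-following prior, 391 with pairwise terms and 817 without the array labelled shRUNX1. The slope gave 1 gene, 0 with no filter or quantile normalization, and 234 without shRUNX2+shRUNX3. Chb-M' gave 74, against 7 without a filter, 128 with the stricter one, 49 with clusters averaged and 0 to 77 without 1 array. For shLuc against DMSO, 58 genes were called, against 95 to 216 with the stricter filter, averaged clusters, quantile normalization or the level-following prior, and 0 to 104 without 1 array. The cause was not tested. No paired analysis was possible because every array carries replicate number 1, so that the number pairs no arrays. The matched pairs of arrays differ in 1 shRNA, and the additive model already holds the other shRNAs as terms. With 1 array per condition, compound differences rest on a spread borrowed from the knockdown arrays.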
